A study of Mus musculus with 2 samples.

Results

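The protein components of the ribosome were examined in mouse limb buds, cytosolic and mitochondrial ribosomes apart. Members were the genes whose symbol, as the platform annotation gives it, is that of a cytosolic ribosomal protein (Rpl, Rps, Rplp or Rpsa) or of a mitochondrial one (Mrpl or Mrps), and which had a probe set annotated to that symbol alone. This gave 21 cytosolic and 68 mitochondrial genes, 89 of the 14860 genes measured. Of these, 88 had 1 probe set, and Mrpl48 had 2. Limb buds of wild-type CD1 embryos, an outbred mouse stock, at embryonic day 10.5 were cut at the midline, and the pooled posterior and the pooled anterior tissue were hybridised to 1 Affymetrix array each. The labels name 8 litters as the source, and both pools carry the same genotype and no treatment. There is thus 1 posterior and 1 anterior array and no replicate. The labels do not say whether forelimbs or hindlimbs were used.

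Levels are given as log2 values after RMA, and a difference is the posterior value minus the anterior value of the same gene. A gene was called detected where its higher value lay above 5.06, the 95th percentile of 852 genes of olfactory, vomeronasal and taste receptors and beta-defensins. The yardstick of a difference is its local spread, the robust standard deviation of the differences of the 500 genes nearest in mean level. It holds real differences as well as measurement noise and is not a replicate error, so no p-value is given and no difference below is a tested one. Levels of different probe sets do not share a scale and are not ranked. Known genes of the axis went with the labels: Ptch1, a target of Sonic hedgehog, was at 8.58 in posterior and 7.41 in anterior tissue, and Alx4, a homeobox gene of anterior mesenchyme, at 5.13 in posterior and 5.77 in anterior tissue.

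Cytosolic ribosomes translate the mRNAs of the nucleus and are built in the nucleolus from ribosomal RNA and proteins of a large and a small subunit. Mitochondrial ribosomes are a separate kind of bacterial ancestry, made of proteins imported from the cytosol, and translate the few membrane proteins encoded by mitochondrial DNA. Ribosomal proteins matter for limb and skeletal patterning: loss of single cytosolic members causes Diamond-Blackfan anaemia in humans, in which the thumb, an anterior digit, can be malformed, and mouse mutants of Rpl38 have a changed vertebral pattern.

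By their medians, ribosomal protein genes were nearly level between posterior and anterior tissue. Single cytosolic members were more spread, with a robust standard deviation of 0.22 in their differences beside a median local spread of 0.09. The median difference was -0.10 for the cytosolic and -0.08 for the mitochondrial members, against -0.07 for all 9017 detected genes and -0.04 for all genes. At 1.3-fold, the submitters' own threshold, 2 of 21 cytosolic members (Rps24 and Rps15) were higher in posterior tissue and 2 (Rpl31 and Rpl37) lower. Of the 68 mitochondrial members, 1 (Mrpl21) was higher in posterior tissue and 2 (Mrpl47 and Mrpl17) lower. Over all genes, 3.77% were that much higher in posterior and 4.8% in anterior tissue, so the mitochondrial counts lay under the background and the cytosolic ones rest on 4 genes. Among detected genes 1.85% were that much higher in posterior and 4.68% in anterior tissue, beside 1 and 2 of the 18 detected cytosolic members and 0 and 2 of the 66 detected mitochondrial ones. At 1.2-fold, 2 cytosolic and 1 mitochondrial members were higher in posterior tissue, where 7.5% of all genes (4.0% of detected ones) were, and 6 cytosolic and 5 mitochondrial members were lower, where 10.9% of all genes (11.6% of detected ones) were. Rps15 and Mrpl21 were not detected. For Rpl31 the floor leaves only a lower bound of 1.15-fold, so whether it passes 1.3-fold is uncertain. In pooled tissue, fewer cells of a type and less RNA per cell cannot be told apart.

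**Figure D1:**
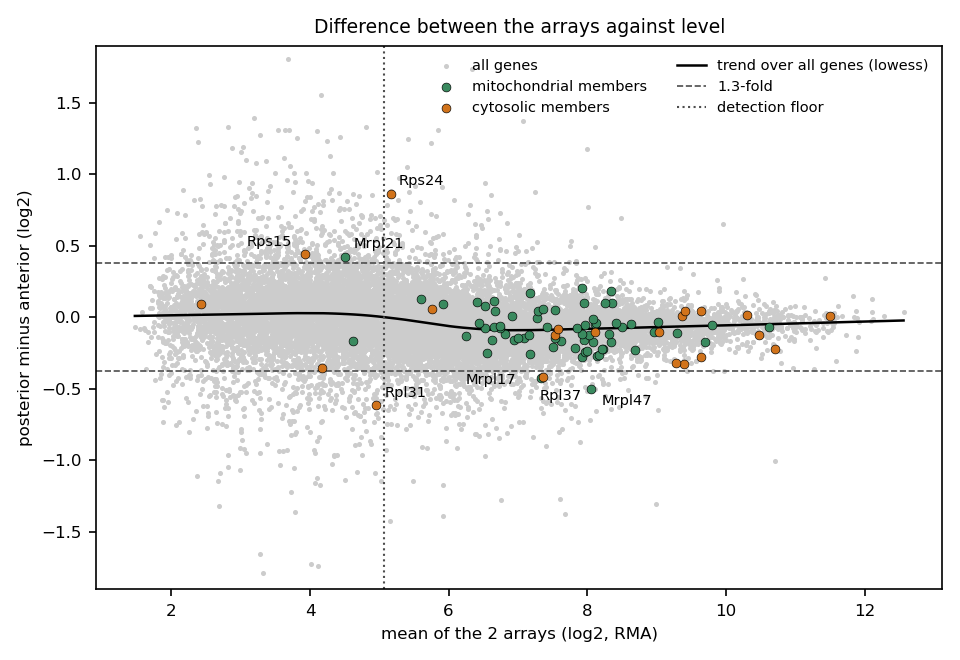
Difference between the arrays (posterior minus anterior, log2) against the mean of both arrays (log2) for all 14860 genes in grey, with cytosolic members in orange and mitochondrial members in green. The black line is the lowess trend over all genes, dashed lines mark 1.3-fold and the dotted line the detection floor of 5.06. Most members lie along the trend, and the 7 named ones lie beyond 1.3-fold.

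The promoters of the members that stood furthest from the other genes follow, because any difference between the tissues rests most on these genes. They are the detected members past 1.3-fold also when the floor replaces a lower value, and those more than 2 local spreads from the trend of the difference with level. Rps20 and Mrps28 also belong here but had no entry in the promoter table. Each sequence runs from 150 bases before the RefSeq start to 25 bases from it on, from the GRCm38.p6 table of RefSeq. Capitals mark matches on either strand to CCGGAAG, the core bound by ETS factors such as GABPA, to GCGCATGC, the core of the longer NRF1 element of nuclear genes for mitochondria, to AAGATGGC, the YY1 element, or to CACGTG, the E-box bound by MYC. For Rps24 and Rps27l, which have 2 listed starts, the first is shown.

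Rpl37 (chr15:5116463-5116637, plus strand): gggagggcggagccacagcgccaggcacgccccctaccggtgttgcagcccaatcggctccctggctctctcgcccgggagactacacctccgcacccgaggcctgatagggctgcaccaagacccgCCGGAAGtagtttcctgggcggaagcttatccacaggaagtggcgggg

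Rpl31 (chr1:39367701-39367875, plus strand): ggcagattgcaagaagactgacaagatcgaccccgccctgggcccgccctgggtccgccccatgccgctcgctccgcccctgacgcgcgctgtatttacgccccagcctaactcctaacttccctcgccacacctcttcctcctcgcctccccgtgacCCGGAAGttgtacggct

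Rplp0 (chr5:115559317-115559491, plus strand): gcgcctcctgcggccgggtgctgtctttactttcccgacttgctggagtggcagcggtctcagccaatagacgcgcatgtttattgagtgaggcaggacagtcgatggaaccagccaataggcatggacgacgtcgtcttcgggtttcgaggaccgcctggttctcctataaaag

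Rpsa (chr9:120127616-120127790, plus strand): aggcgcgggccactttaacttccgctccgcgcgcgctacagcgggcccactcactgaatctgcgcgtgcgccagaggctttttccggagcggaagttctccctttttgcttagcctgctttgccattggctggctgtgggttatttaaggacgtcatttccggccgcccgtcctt

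Rps27l (chr9:66945936-66946110, plus strand): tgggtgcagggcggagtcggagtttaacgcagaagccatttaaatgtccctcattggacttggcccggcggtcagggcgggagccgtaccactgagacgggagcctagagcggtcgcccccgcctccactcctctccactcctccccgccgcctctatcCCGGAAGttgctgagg

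Rps24 (chr14:24490528-24490702, plus strand): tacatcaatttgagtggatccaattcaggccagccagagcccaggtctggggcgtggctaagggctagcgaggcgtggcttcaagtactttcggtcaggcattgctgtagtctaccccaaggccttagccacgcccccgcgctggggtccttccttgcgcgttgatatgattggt

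Mrpl17 (chr7:105811063-105811237, minus strand): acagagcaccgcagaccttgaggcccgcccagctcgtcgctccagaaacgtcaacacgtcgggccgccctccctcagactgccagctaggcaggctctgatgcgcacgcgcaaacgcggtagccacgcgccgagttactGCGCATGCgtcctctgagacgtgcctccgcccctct

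Mrpl47 (chr3:32736731-32736905, minus strand): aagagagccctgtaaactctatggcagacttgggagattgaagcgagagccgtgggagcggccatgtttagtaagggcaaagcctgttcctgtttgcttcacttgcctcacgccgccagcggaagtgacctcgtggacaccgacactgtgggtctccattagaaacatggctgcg

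Mrpl30 (chr1:37890327-37890501, plus strand): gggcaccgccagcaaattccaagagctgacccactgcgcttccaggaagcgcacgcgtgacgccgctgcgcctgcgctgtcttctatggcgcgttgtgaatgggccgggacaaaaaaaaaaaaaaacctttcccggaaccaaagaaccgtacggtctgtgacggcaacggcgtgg

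Mrps36 (chr13:100744635-100744809, minus strand): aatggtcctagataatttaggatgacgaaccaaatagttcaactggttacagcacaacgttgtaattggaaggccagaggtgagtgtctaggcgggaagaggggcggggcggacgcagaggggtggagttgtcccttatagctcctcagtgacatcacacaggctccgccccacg

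The ETS core was present in the windows of Rpl37, Rpl31 and Rps27l and the NRF1 core in that of Mrpl17, where it lies shortly before the start. None of the 4 motifs was found in the windows of Rplp0, Rpsa, Rps24, Mrpl47, Mrpl30 and Mrps36, and the ETS cores of Rpsa and Mrpl17 lie outside the stretches printed. The windows at the second listed starts of Rps27l and Rps24, not printed, also held none of them. How often windows of this length hold the motifs in other genes was not counted.

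Among proteins of the cytosolic large subunit, 7 of 12 were lower in posterior tissue and 5 were higher, with a median difference of -0.11. Rpl37, a small zinc-binding protein of this subunit, was at 7.16 in posterior and 7.58 in anterior tissue, 1.34-fold lower in posterior tissue with a local spread of 0.14. Rplp0, the stalk protein on which the P1 and P2 proteins sit, was at 9.12 in posterior and 9.44 in anterior tissue. It was 1.25-fold lower in posterior tissue, which is 3.86 local spreads, since genes of its level spread by only 0.08.

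Rpl31, a protein at the exit of the peptide tunnel, was at 4.65 in posterior tissue, under the floor, and at 5.26 in anterior tissue, just above it. This bounds it at least 1.15-fold lower in posterior tissue. A second probe set, annotated to Rpl31 and to 2 of its pseudogenes and therefore left out of the members, lay at 10.02 in posterior and 10.07 in anterior tissue. Another, which also names Spag6l, was not detected, and was 0.18 higher in posterior tissue. The probe sets of Rpl31 thus disagree, with differences of -0.61, -0.05 and 0.18.

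The remaining detected proteins of the large subunit differed by 0.12 or less. Rpl8, which sits near the peptidyl transferase centre, was at 10.42 in posterior and 10.54 in anterior tissue. Rpl35a, a gene mutated in Diamond-Blackfan anaemia, was at 7.47 in posterior and 7.59 in anterior tissue. Both lay slightly toward anterior tissue, by less than 2 local spreads.

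Rpl4, which lines the peptide tunnel, was at 9.66 in posterior and 9.61 in anterior tissue. Rpl23, a protein of the subunit interface that can also bind Mdm2, was at 9.37 in posterior and 9.36 in anterior tissue. Rpl10a, the protein of the L1 stalk, was at 5.78 in posterior and 5.73 in anterior tissue. These 3 genes were level, each within 1 local spread of 0.

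Among proteins of the cytosolic small subunit, 5 of 9 were lower in posterior tissue and 4 were higher, with a median of -0.08. Rps20, a protein of the head of the subunit whose mouse mutants have dark skin, was at 9.23 in posterior and 9.56 in anterior tissue, 1.26-fold lower in posterior tissue. Rpsa, also known as the laminin receptor precursor, was at 9.49 in posterior and 9.77 in anterior tissue, 1.21-fold lower in posterior tissue. They lay 4.03 and 3.49 local spreads from 0, and neither reached 1.3-fold.

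Rps24, which acts in maturation of the small subunit's RNA and is mutated in Diamond-Blackfan anaemia, stood furthest from the others. It was at 5.59 in posterior tissue and at 4.73, under the floor, in anterior tissue, which bounds it at least 1.45-fold higher in posterior tissue. Its measured difference was 0.86, or 4.82 local spreads. Rps15, a protein of the head, was 0.44 higher in posterior tissue, at 4.14 and 3.70 in the posterior and the anterior array, both under the floor.

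Rps9, Rps3 and Rps18 were level. Rps9 was at 11.50 in posterior and 11.49 in anterior tissue. Rps3, which lies at the mRNA entry, was at 10.31 in posterior and 10.29 in anterior tissue, and Rps18 at 7.54 in posterior and 7.62 in anterior tissue. Each lay within 1 local spread of 0.

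**Figure D2:**
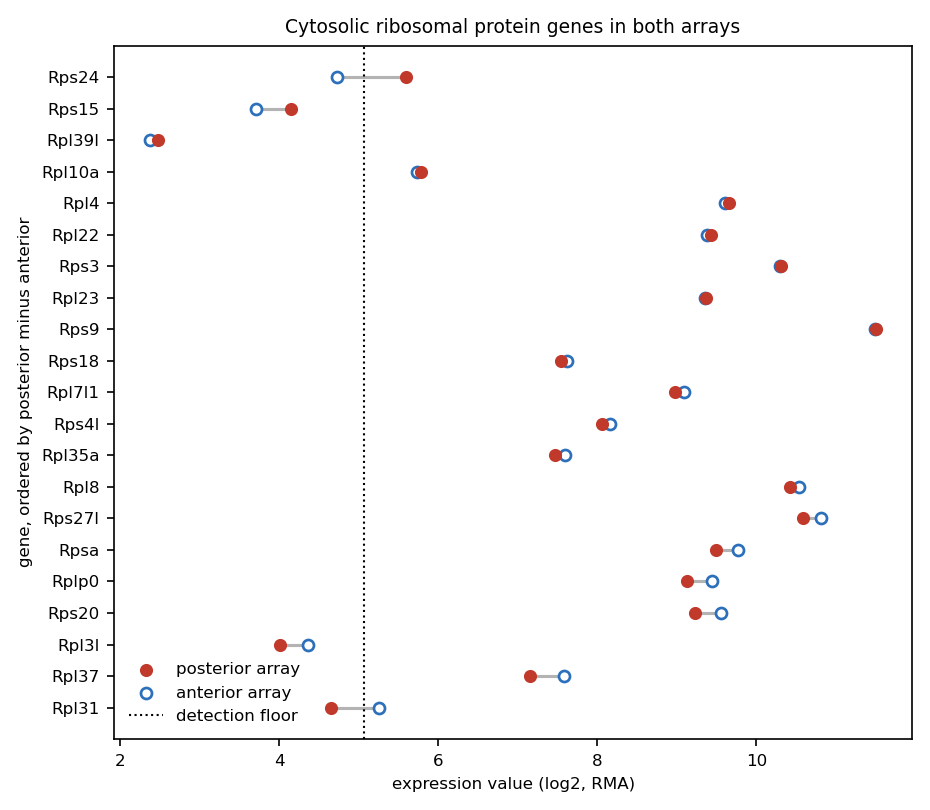
Expression values (log2, RMA) of the 21 cytosolic members in the posterior array (filled red) and the anterior array (open blue), ordered from the highest to the lowest posterior minus anterior difference. The dotted line is the detection floor of 5.06. Rps24 and Rpl31 straddle the floor, and Rps20, Rplp0, Rpsa and Rps27l are lower in the posterior array.

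Paralogues, copies that can replace or accompany the standard protein, were measured for 6 of the 16 genes on that list. Rps27l, the p53-inducible paralogue of Rps27, was at 10.59 in posterior and 10.82 in anterior tissue, 1.17-fold lower in posterior tissue and 3.19 local spreads from 0. Rpl7l1 was at 8.98 in posterior and 9.08 in anterior tissue, and Rps4l, a relative of Rps4x, at 8.05 in posterior and 8.16 in anterior tissue. Both lay close to 1 local spread toward anterior tissue.

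Rpl22, whose own paralogue was not measured by a probe set of its own, was at 9.42 in posterior and 9.38 in anterior tissue. Rpl39l, known from testis, and Rpl3l, known from striated muscle, were not detected. Rpl39l was at 2.47 in posterior and 2.38 in anterior tissue, and Rpl3l was 0.35 lower in posterior tissue. Neither muscle nor testis paralogue therefore rose above the background of the arrays.

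Among the cytosolic members, several lay further from the other genes of their level than 1.3-fold counts show. Once the trend with level was removed, 6 of 21 (Rpl31, Rpl37, Rps20, Rplp0, Rpsa and Rps27l) lay more than 2 local spreads toward anterior tissue, where 5.07% of all genes did. Toward posterior tissue 1 (Rps24) did, where 4.59% of all genes did. Among detected genes the shares were 5.15% toward anterior and 4.1% toward posterior tissue, and all 7 members are detected. However, Rpl31 in posterior and Rps24 in anterior tissue lay under the floor, so the size of their differences is uncertain. Rpl31 is bounded only at 1.15-fold, and its brighter probe set, shared with pseudogenes, differed by -0.05. The trend-removed differences of Rps20, Rplp0, Rpsa and Rps27l lay between -0.27 and -0.18. Genes such as Rplp0, Rpsa and Rps20 have many processed pseudogenes, and whether these add to the probe signal was not tested.

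Of 20 genes mutated in Diamond-Blackfan anaemia, 4 were members, of which 3 were lower and 1 was higher in posterior tissue. Rps24 was higher in posterior tissue, and Rpl31, Rps20 and Rpl35a were lower there, with differences between -0.61 and 0.86. Their median was -0.22, and -0.15 after the trend with level was removed. Rps24 and Rpl31 each lay under the floor in 1 tissue, and 4 genes are too few to show a lean. Of 8 genes whose mouse or human mutants have changes of the body pattern or skin, Rps20 and Rpsa alone were members.

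Mitochondrial ribosomal proteins lay close together. Their differences had a robust standard deviation of 0.13, close to the median local spread of 0.12 at their levels, whereas the cytosolic members had 0.22 beside a local spread of 0.09. Of the 68, 51 were lower in posterior tissue and 17 higher, so that 75% leaned toward anterior tissue, against 66.8% of all detected genes. After the trend with level was removed, 34 lay on each side and the median was -0.01. Differences were under 0.3 for 65 of the 68.

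Among the 43 genes named for the large mitochondrial subunit, 32 were lower in posterior tissue, with a median of -0.07. Mrpl47, the counterpart of bacterial L29, was at 7.81 in posterior and 8.30 in anterior tissue, 1.41-fold lower in posterior tissue and 4.60 local spreads from 0. Mrpl17, the counterpart of bacterial L17, was at 7.12 in posterior and 7.54 in anterior tissue, 1.34-fold lower in posterior tissue. These were the only mitochondrial members past 1.3-fold and detected by their averaged values.

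The next 5 toward anterior tissue were Mrpl40, Mrpl51, Mrpl10, Mrpl41 and Mrpl33. Mrpl40, a protein found only in mitochondrial ribosomes, was at 8.03 in posterior and 8.30 in anterior tissue. Mrpl10, which forms the stalk base, was at 6.42 in posterior and 6.67 in anterior tissue. Mrpl51, Mrpl41 and Mrpl33 had differences of -0.26, -0.25 and -0.24.

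Mrpl12, which carries the stalk's contact with translation factors, was at 7.96 in posterior and 8.08 in anterior tissue. Mrpl11 was at 9.61 in posterior and 9.78 in anterior tissue, a difference of 2.26 local spreads since genes of its level spread by 0.08.

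On the posterior side, Mrpl30 was at 8.43 in posterior and 8.25 in anterior tissue, 1.13-fold higher in posterior tissue. Mrpl38 was at 5.67 in posterior and 5.54 in anterior tissue, and Mrpl32, which is matured by a mitochondrial protease, at 6.46 in posterior and 6.35 in anterior tissue. Mrpl58, which doubles as a hydrolase that frees stalled peptides, was at 8.30 in posterior and 8.20 in anterior tissue, and Mrpl35 at 8.41 in posterior and 8.31 in anterior tissue. Mrpl21 was past 1.3-fold by its measured values, at 4.72 in posterior and 4.29 in anterior tissue, both under the floor.

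Mrpl48 was the only member with more than 1 probe set, and these did not match. One read 7.17 in posterior and 7.59 in anterior tissue, a difference of -0.42, and the other 1.91 in posterior and 1.82 in anterior tissue. Their average lay under the floor, at 4.54 in posterior and 4.71 in anterior tissue. With the brighter probe set alone Mrpl48 was detected and past 1.3-fold toward anterior tissue.

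Among the 25 genes named for the small mitochondrial subunit, all were detected, 19 were lower in posterior tissue, and none passed 1.3-fold. Mrps2 was at 7.78 in posterior and 8.06 in anterior tissue, and Mrps25, found only in mitochondrial ribosomes, at 8.00 in posterior and 8.27 in anterior tissue. They were each 1.21-fold lower in posterior tissue. Mrps18a, Mrps24 and Mrps15 followed with differences of -0.23, -0.22 and -0.22.

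The decoding-site protein Mrps12 was at 9.24 in posterior and 9.35 in anterior tissue. Mrps18c was at 10.59 in posterior and 10.65 in anterior tissue, and Mrps5 at 6.92 in posterior and 6.91 in anterior tissue. These genes differed little between the tissues, Mrps5 least of them.

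On the posterior side, Mrps28 was at 8.02 in posterior and 7.82 in anterior tissue, 1.15-fold higher in posterior tissue. Mrps36, now known mainly as a component of the ketoglutarate dehydrogenase complex, was at 7.25 in posterior and 7.08 in anterior tissue. Mrps18b, Mrps17 and Mrps27 were 0.11, 0.10 and 0.10 higher in posterior tissue. After the trend with level was removed, Mrpl21, Mrps28, Mrpl30 and Mrps36 lay more than 2 local spreads toward posterior tissue and Mrpl47 and Mrpl17 toward anterior tissue. These are 4 and 2 of 68, where 4.59% and 5.07% of all genes did. Without Mrpl21, which was not detected, they are 3 and 2 of 66, where 4.1% and 5.15% of detected genes did.

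Proteins with a bacterial counterpart and those found only in mitochondrial ribosomes were also counted apart. Of 43 with a counterpart 32 were lower in posterior tissue, with a median of -0.07, and of 24 mitochondria-specific ones 19 were, with a median of -0.10. Of all detected genes 66.8% were lower there. After the trend with level was removed, 21 with a counterpart were higher and 22 lower, and 12 mitochondria-specific ones lay on each side. Mrps36 was put in neither class. The genes past 1.3-fold, Mrpl47, Mrpl17 and Mrpl21, all have a bacterial counterpart. Mrps30 and Mrps18a are named for the small subunit but belong to the large subunit in mammalian structures, and were at 6.93 and 8.57 in posterior and at 7.07 and 8.80 in anterior tissue.

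**Figure D3:**
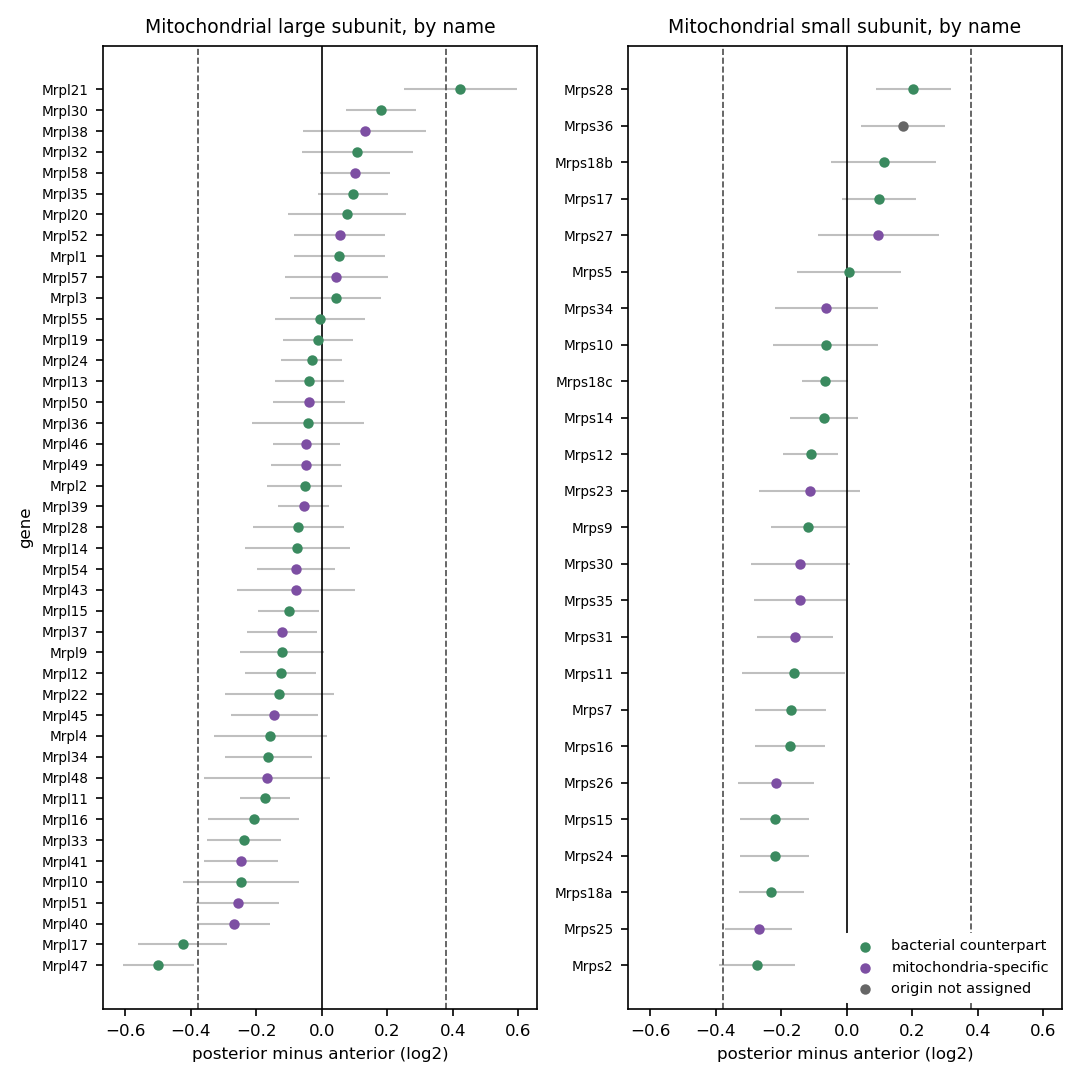
Posterior minus anterior difference (log2) of each of the 68 mitochondrial members, those named for the large subunit left and for the small subunit right. Points are the measured differences, coloured by whether the protein has a bacterial counterpart, grey bars are plus and minus 1 local spread, and dashed lines mark 1.3-fold. Mrpl47 and Mrpl17 lie past the line toward anterior and Mrpl21 toward posterior tissue, and the other 65 lie between the lines.

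The promoters of the members were searched for short motifs, which the choice of members did not use. Of the cytosolic members 18 had 25 listed promoters and of the mitochondrial ones 59 had 65, each covering 250 bases before the start and 50 after it. Rpl8, Rps20 and Rps4l and 9 mitochondrial members had no entry. Both strands were searched. The ETS core CCGGAAG was present in 24% of cytosolic and 30.8% of mitochondrial members' promoters, against 17.4% of those of detected genes and 8.86% of all 32851 promoters. The YY1 element AAGATGGC was present in 20% of cytosolic and 16.9% of mitochondrial members' promoters, against 4.63% of those of detected genes and 2.75% of all. The shares count each listed promoter, and the 5 cytosolic promoters with this element belong to 3 of the 18 genes, Rpl22, Rpl35a and Rpl7l1.

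The NRF1 core GCGCATGC was present in 12.3% of the promoters of mitochondrial and 4% of those of cytosolic members, against 5.36% of those of detected genes and 2.71% of all. Mrpl10, Mrpl17, Mrpl22, Mrpl32, Mrpl33, Mrpl39, Mrpl9 and Mrps18b hold it, and Mrpl32, Mrpl39 and Mrpl9 hold the full NRF1 element, which contains the core. The E-box CACGTG was present in 4% of cytosolic and 10.8% of mitochondrial members' promoters, against 9.84% of those of detected genes. GC boxes (GGGCGG) were present in 48% of cytosolic and 50.8% of mitochondrial members' promoters, against 63.5% of those of detected genes.

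A start with a C followed by at least 4 bases that are each C or T, within 3 bases of the listed start, is the mark of the mRNAs that mTOR controls in translation. It was found in 24% of the cytosolic and 12.3% of the mitochondrial members' promoters, against 11.6% of those of detected genes. Listed starts can lie some bases off the true one, so these shares depend on the annotation.

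**Figure D4:**
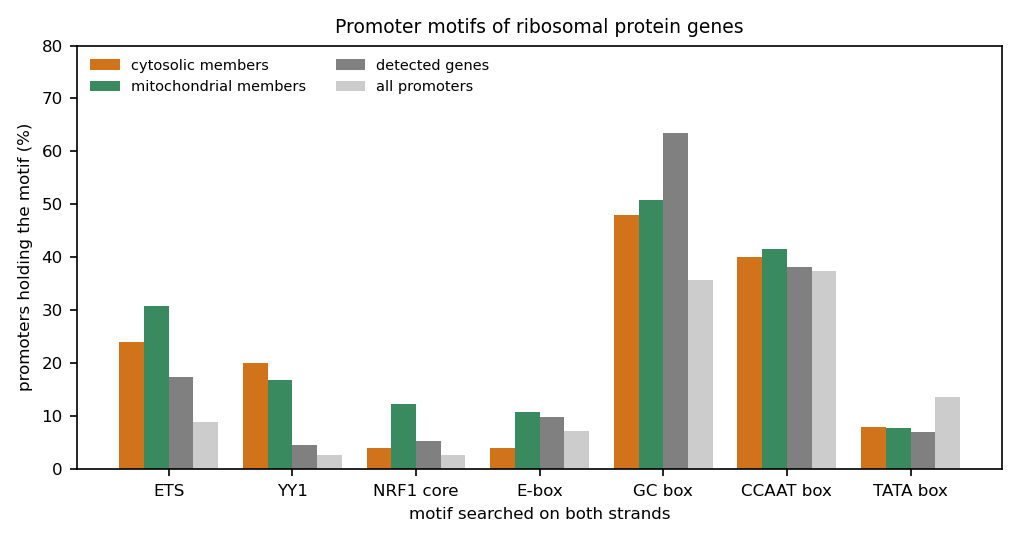
Share of promoters (percent, 300 bases each) that hold each motif on either strand, for 25 promoters of cytosolic members, 65 of mitochondrial members, 9351 of detected genes and all 32851 promoters of the table. The ETS and YY1 motifs stand higher in both classes of members than in detected genes, and GC boxes stand lower. A gene with several listed promoters is counted once for each.

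Members with the ETS core were set beside members without it. The 6 cytosolic members that hold it (Rpl31, Rpl37, Rpl39l, Rps18, Rps27l and Rpsa) had a median difference of -0.25, and the 12 without it 0.01. The ranges overlapped, from -0.61 to 0.09 with it and from -0.35 to 0.86 without it. Of these genes Rpl39l, Rpl3l and Rps15 were not detected, and Rpl31 and Rps24 were under the floor in one tissue. The ends of both ranges are such genes, and a link of the motif with the difference was not tested. Among mitochondrial members the medians were -0.11 for 20 with it and -0.07 for 39 without it. The 8 mitochondrial members with the NRF1 core had a median of -0.13 and the 51 without it -0.08. For the full NRF1 element the order was reversed, at -0.06 for the 3 mitochondrial members with it and -0.11 for the 56 without it. For the YY1 element the mitochondrial medians were -0.11 for 11 with it and -0.10 for 48 without it. Cytosolic ones were -0.10 for 3 with it and 0.01 for 15 without it. The motifs thus did not share a direction, and no link was tested.

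Other genes of translation were described in the same way. Of 29 measured genes of ribosome biogenesis and RNA polymerase I, none passed 1.3-fold, 17 were lower in posterior tissue, and the median was -0.04. Wdr12, of the complex that matures the large subunit, came closest, at 6.75 in posterior and 7.12 in anterior tissue, and Polr1d, a polymerase subunit, was at 8.38 in posterior and 8.63 in anterior tissue. The nucleolar protein Ncl was level at 11.57 in posterior and 11.54 in anterior tissue.

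Of 14 measured elongation and initiation factors and other mRNAs of the oligopyrimidine class, none passed 1.3-fold either, with a median of -0.06. Eif3k, a subunit of initiation factor eIF3, was at 9.67 in posterior and 9.89 in anterior tissue, and Eif3e, another subunit, at 9.41 in posterior and 9.29 in anterior tissue. The elongation factor Eef2 was at 10.61 in posterior and 10.65 in anterior tissue. The list as a whole lay near the median of all detected genes.

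Of 26 measured mitochondrial translation factors and tRNA synthetases, 1 passed 1.3-fold in each direction and the median was -0.05. Mars2, the mitochondrial methionyl-tRNA synthetase, was at 4.85, under the floor, in posterior and at 5.47 in anterior tissue, at least 1.33-fold lower in posterior tissue. Tufm, the mitochondrial elongation factor, was 1.01 higher in posterior tissue, but at 3.99 in posterior and 2.99 in anterior tissue it was not detected. Gfm2, which recycles mitochondrial ribosomes, was at 6.95 in posterior and 7.22 in anterior tissue.

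Of 16 measured genes of mitochondrial ribosome assembly, 15 were lower in posterior tissue and 1 higher, none past 1.3-fold, with a median of -0.13. Of all detected genes 66.8% were lower in posterior tissue, and after the trend with level was removed 6 genes of the list were higher there and 10 lower. Nsun4 and Mterf4, which act as a pair on the large subunit, were at 5.04 and 6.39 in posterior and at 5.41 and 6.75 in anterior tissue. Eral1, the chaperone of the small subunit's RNA, was at 6.64 in posterior and 6.89 in anterior tissue. Mtg2, the gene on the posterior side, was not detected. The trend-removed median of this list was -0.05.

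By their medians, the lists of upstream regulators were near level as well. In the MYC network Mxd1, a repressor that competes with MYC, was 1.31-fold higher in posterior tissue, at 6.60 there and at 6.21 in anterior tissue, the only one of 11 past 1.3-fold. Myc was at 6.60 in posterior and 6.53 in anterior tissue and Mycn was 0.16 lower in posterior tissue. Mycl was 1.25-fold higher in posterior tissue, at 6.18 there and at 5.86 in anterior tissue. After the trend with level was removed, 2 of the 11 (Mxd1 and Mycl) lay more than 2 local spreads toward posterior tissue, where 4.59% of all genes did. Toward anterior tissue 0 did, where 5.07% of all genes did. None of 14 genes of mTORC1 signalling passed 1.3-fold (median -0.10), with Mtor at 6.27 in posterior and 6.43 in anterior tissue and Larp1, which binds oligopyrimidine mRNAs, at 9.09 in posterior and 9.17 in anterior tissue. Of 11 genes of the p53 response, which ribosome stress can induce, 1 passed 1.3-fold in each direction. Over all genes 3.77% did toward posterior and 4.8% toward anterior tissue. Cdkn1a was 1.43-fold higher in posterior tissue, at 5.58 there and at 5.07 in anterior tissue, barely above the floor of 5.06, so its fold is uncertain. Pmaip1 was 1.31-fold lower, at 5.56 in posterior and 5.96 in anterior tissue. Mdm2 was at 7.46 in posterior and 7.52 in anterior tissue.

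**Figure D5:**
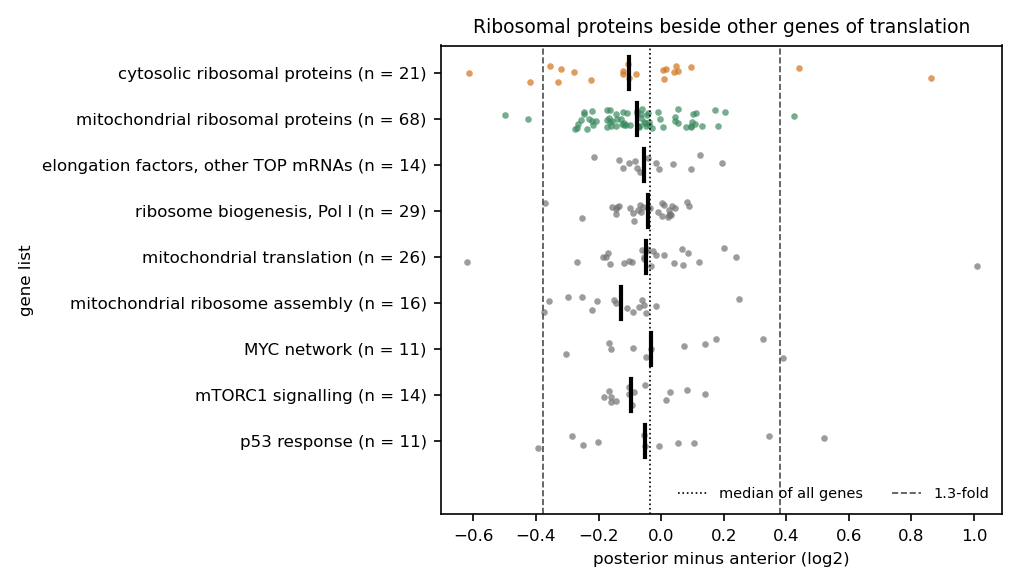
Posterior minus anterior difference (log2) of the members and of the genes on 7 other lists, 1 point per gene with its list median as a black bar. The dotted line is the median of all genes, -0.04, and dashed lines mark 1.3-fold. All list medians lie between -0.13 and -0.03.

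Markers of other cell types the pools could hold were compared beside the members. The mean level of 7 red blood cell genes was 7.41 in posterior and 7.33 in anterior tissue, that of 9 ectoderm genes 6.53 in posterior and 6.46 in anterior tissue, and that of 10 endothelial genes 6.16 in posterior and 6.26 in anterior tissue. In the ectoderm list Krt5 was 1.40-fold higher in posterior tissue, at 7.44 there and at 6.96 in anterior tissue. After the trend with level was removed, 7 ectoderm genes lay toward posterior and 2 toward anterior tissue. For 9 macrophage genes, 3 of them detected, it was 4.58 in posterior and 4.83 in anterior tissue. The median difference was 0.07 for 8 muscle progenitor genes, and 0.09 for the 3 of them that were detected. For 6 neural genes it was 0.15, and -0.13 for the 4 of them that were detected. Among these, Dcx, of migrating neurons, was 1.79-fold lower in posterior tissue, 6.53 local spreads from 0, and Nefm, a neurofilament gene, was 1.47-fold higher there. Of the 9 macrophage genes 7 were lower in posterior tissue, with a median of -0.10. The share lower in posterior tissue was 57.0% of all genes and 66.8% of detected ones. After the trend with level was removed, 7 macrophage genes lay toward anterior and 2 toward posterior tissue. The cytosolic members then stood at 11 and 10, and the mitochondrial ones at 34 and 34. Of the 3 detected ones, Tyrobp, a signalling adaptor of myeloid cells, was 1.82-fold lower in posterior tissue, Cx3cr1 1.26-fold and Fcer1g 1.03-fold. The part of ectoderm, macrophages, neural cells and the other listed cell types in the members' differences was not tested.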

How the data were processed

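Posterior and anterior tissue of limb buds was measured on 1 Affymetrix array each. The deposited values are log2 RMA expression values per probe set, summarised for core genes with Affymetrix Expression Console after amplification of the RNA with a Nugen kit, per the labels. The build listed in the submitters' processing notes is mm9. RMA removes overall differences of brightness between arrays and can compress ratios of dim genes. With so few arrays, their number sets the precision.

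Of 23332 probe sets, 14996 had 1 gene symbol in the platform annotation, 1019 several and 7317 none. Probe sets of a symbol were averaged, which gave 14860 genes. All 89 members' identifiers matched a GRCm38 gene table, and 0 symbols changed. Both value columns matched a sample, and 0 others were present. Python 3.11.15, pandas 2.3.3 and statsmodels 0.14.6 (lowess, fraction 0.3) were used, and the code was tested on simulated data. No test is possible with 1 array per group. The floor, the local spread (1.4826 times the median absolute deviation over 500 genes) and counts past 1.3-fold describe these arrays.

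The members and the 18 supporting lists, 260 entries in all, were chosen with earlier results of these data known, and the split by bacterial counterpart and the motifs were chosen after the values were seen. None of the 5 genes listed as cytosolic ribosomal proteins under other symbols was measured, and of 6 mitochondrial ones Chchd1, Ptcd3 and Gadd45gip1 were, with differences of -0.11, -0.13 and -0.22. The genes named were, in each subunit, the detected members with the largest differences and the highest and lowest levels, members past 1.3-fold or not detected, members of the short lists, and up to 3 genes and 1 opposite gene of each other list; further members illustrate their group.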

Additional observations from a re-analysis of the deposited data

How the results depend on the processing

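No paired analysis was possible because each group holds 1 array. The medians of the cytosolic and the mitochondrial members kept their sign under all 5 alternatives run (detected genes only, median-centred arrays, trend with level removed, brightest probe set, an offset of 32 on the linear scale), at -0.10 to -0.03 and -0.08 to -0.01. The kept sign says little, because the offset cannot turn the sign of any gene's difference. The brightest probe set changed no member but Mrpl48. Trend removal turned the sign of 17 mitochondrial and 1 cytosolic members. It left medians of -0.03 for the cytosolic and -0.01 for the mitochondrial members. Of the cytosolic members 10 then lay toward posterior and 11 toward anterior tissue, and of the mitochondrial ones 34 on each side. Counts moved more. Among cytosolic members, 1 was higher in posterior tissue with detected genes only, with the offset, and at 2 local spreads from the trend; toward anterior tissue 0 passed with the offset, 6 at 1.2-fold and 6 at 2 local spreads. Among mitochondrial members, 0 were higher in posterior tissue with detected genes only and with the offset, and 4 at 2 local spreads; toward anterior tissue 1 passed with the trend removed, 1 with the offset and 5 at 1.2-fold. Rpl37 and Mrpl17 fell under 1.3-fold with the trend removed, and Rpl3l, not detected, passed it. With the offset Rpl31, Rpl37, Rps15, Mrpl17 and Mrpl21 fell under 1.3-fold, since it shrinks ratios of dim genes most. With detected genes only, the median of the macrophage list was -0.34 and that of the neural list -0.13, since fewer genes entered. Members near the floor (Rps24, Rpl31, Rps15, Mrpl21) carry the least certain values.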

Other observations

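Probe sets annotated to several symbols were left out of the members, and 36 of them name at least 1 ribosomal protein. For 15 of these the other symbols are pseudogenes or unnamed model genes, and the protein's gene and its copies cannot be told apart. All 15 were detected, 6 were higher and 9 lower in posterior tissue, and their median difference was -0.05, near that of the members. Past 1.3-fold by their measured values were 2 toward posterior tissue (Rpl26 and Rps19), where 1.85% of detected genes were, and 3 toward anterior tissue (Rpl34, Rpl29 and Rps13), where 4.68% were.

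Rpl38, the gene of the mouse mutant with a changed vertebral pattern, was at 9.03 in posterior and 8.73 in anterior tissue, 1.23-fold higher in posterior tissue, by a probe set shared with a pseudogene. Rps19, the gene most often mutated in Diamond-Blackfan anaemia, was at 5.42 in posterior tissue and under the floor in anterior tissue, at least 1.28-fold higher in posterior tissue. Rpl26, which is also mutated in that disease, was at 6.79 in posterior and 6.14 in anterior tissue. Rpl34 was the furthest toward anterior tissue, at 5.63 in posterior and 6.44 in anterior tissue, while a probe set that carries Rpl34 and Pcgf3 read 8.31 in posterior and 8.34 in anterior tissue. These genes were chosen after their values were seen.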
